A study of Mus musculus with 6 samples.

Results

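The DNA replication and S-phase genes are a list of 58 genes that encode the proteins by which a cell chooses origins, builds replication forks, makes deoxynucleotides and packs the new DNA. They were found by symbol in a table of 11162 genes. The table gave values for 57 of them, and Gins1 was not analysed here. The values came from naive CD8 T cells of mouse spleen carrying the transgene Tg(Nr4a1-EGFP)GY139Gsat, here called Nur77-GFP, in which Nr4a1 sequences drive green fluorescent protein, so that brightness is used as a reading of recent T-cell receptor signalling. All samples had been sorted by flow cytometry as CD8+, CD44lo, CD62Lhi and Qa2hi cells labelled OT-I, a transgenic T-cell receptor. They differed in the last gate only, which took Nur77-GFPhi cells for 3 libraries (GFP-hi) and Nur77-GFPlo cells for the other 3 (GFP-lo). The labels do not say whether the libraries came from separate mice, so p-values measure the spread between these libraries, which may be technical. The question asked was whether the genes of DNA replication differ between bright and dim cells that all carry a naive surface phenotype.

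Values are RPKM, reads scaled to the length of the gene and to the depth of the library, which allows levels of different genes to be compared. Fold changes are differences of log2(RPKM + 1), GFP-hi minus GFP-lo, which understate the change of low genes, with its standard error (SE) and a 95% interval for the gene alone. A gene is said to rise or fall when the Benjamini-Hochberg (BH) adjusted p of limma was under 0.05, over all 9351 genes whose mean reached an RPKM of 1. Recovered read depth ran from 26170000 to 35940000 reads per library, so an RPKM of 1 stood for 26.17 to 35.94 reads per kilobase.

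A resting naive T cell lies outside the cell cycle and copies no DNA. As a cell leaves rest, E2F transcription factors are freed from the retinoblastoma protein and switch on many replication genes. In G1 the origin recognition complex, Cdc6 and Cdt1 then load the ring-shaped MCM helicase onto origins, which is called licensing. In S phase Cdc45, GINS and Mcm10 turn loaded rings into running helicases, and the polymerases follow with the sliding clamp Pcna.

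The replication genes that differed were all higher in GFP-hi cells. Of 51 tested, 10 rose and 0 fell. That is 19.6% higher, where 3.95% of all genes tested passed, 2.46% higher and 1.49% lower. The 10 were Rrm2, Pclaf, Uhrf1, Cdc45, E2f1, Mcm5, Lig1, Mcm6, Chaf1b and Mcm7, with log2 fold changes from 0.32 to 1.39. In 28 of the 51 (54.9%) every GFP-hi library lay above every GFP-lo library, against 17.1% of all genes tested, and in 0 of the 51 did every GFP-hi library lie below, against 9.84% of all genes tested. A positive fold change was found in 45 of the 51 (88.2%), against 55.5% of all genes tested. The median log2 fold change was 0.21 over the 51, and 0.018 over all genes tested. Of the tested genes 3, Orc1, Tyms and Pclaf, had a mean of at least 1 RPKM in GFP-hi but under 1 in GFP-lo, so that these counts favour a rise. Without the filter all 57 genes could be fitted, 11 rose, 0 fell and 51 had a positive fold change. In bulk RNA, more cells with a transcript and more transcript per cell cannot be told apart.

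**Figure D1:**
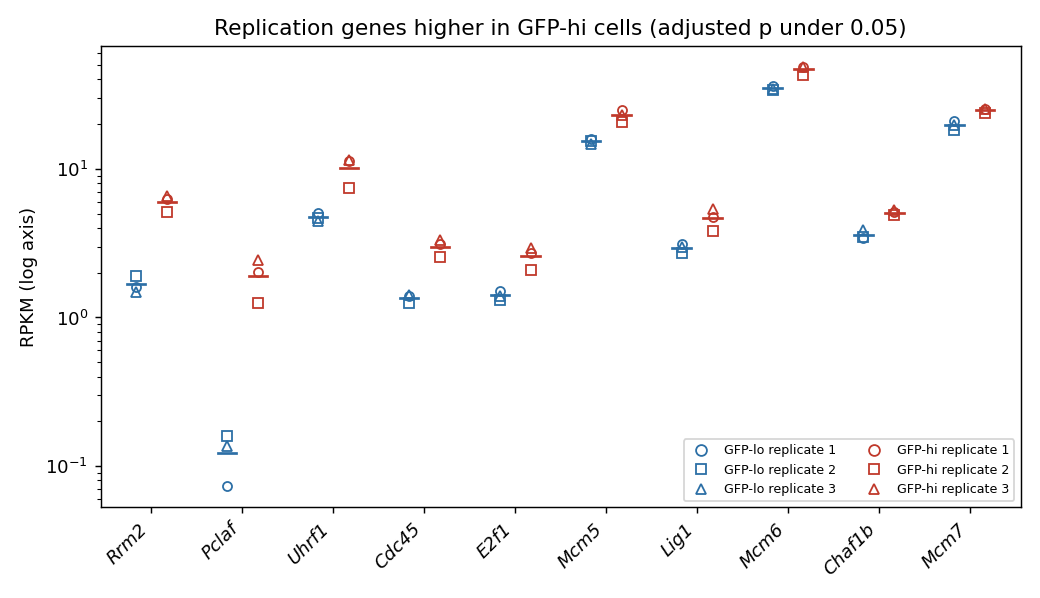
RPKM (log axis) of the 10 replication genes with a BH-BH-adjusted p under 0.05, in order of log2 fold change; each symbol is 1 library, blue for GFP-lo and red for GFP-hi, and horizontal bars are means of 3 libraries. The groups do not overlap in any of the 10, and GFP-hi replicate 2 (red square) is the lowest GFP-hi library in each.

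Many promoters of the list carry letters that E2F factors are known to bind, and the promoters of 5 genes that rose are printed here to show where such letters lie. RefSeq windows from 250 bases before to 50 bases after a start (GRCm38.p6) existed for 49 of the 58 genes. The first word searched, on both strands, was TTCCCGC. Another was TTCGCGC. A further word was TTGGCGC, and the last was TTGCCGC. Overlapping words were merged. At least 1 of these words was present in 32 of 49 genes (65.3%), in 8 of the 10 genes that rose, and in 22 of 35 tested genes (62.9%) that did not pass. In the wider RefSeq table the words were rarer, since 10.9% of all 27025 genes with a window and 20.4% of 7569 tested genes held one. The CCAAT box, searched as CCAAT, was present in 57.1% of the 49 genes and in 43.4% of tested genes. The cell cycle homology region, searched as TTTGAA and better known from mitotic genes, was present in 14.3% and 13.8%. Within the list, the median log2 fold change was 0.21 in 30 tested genes with an E2F word and 0.22 in 15 without. A match of letters is a description and does not show binding. Below are the 250 bases before the start of each gene, 5′ to 3′ along the gene's strand, with E2F words in capitals.
Mcm5, chr8:75109259-75109508, plus strand: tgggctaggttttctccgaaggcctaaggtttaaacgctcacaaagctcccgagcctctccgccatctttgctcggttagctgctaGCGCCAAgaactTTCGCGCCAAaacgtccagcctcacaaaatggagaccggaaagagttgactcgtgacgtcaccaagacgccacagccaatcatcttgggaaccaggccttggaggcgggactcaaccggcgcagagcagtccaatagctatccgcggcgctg
Mcm6, chr1:128359706-128359955, minus strand: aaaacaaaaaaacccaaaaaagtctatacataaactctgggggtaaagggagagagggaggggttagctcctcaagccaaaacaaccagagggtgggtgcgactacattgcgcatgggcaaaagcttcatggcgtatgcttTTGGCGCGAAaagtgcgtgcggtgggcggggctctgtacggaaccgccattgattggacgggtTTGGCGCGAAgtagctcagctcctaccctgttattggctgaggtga
Uhrf1, chr17:56303087-56303336, plus strand: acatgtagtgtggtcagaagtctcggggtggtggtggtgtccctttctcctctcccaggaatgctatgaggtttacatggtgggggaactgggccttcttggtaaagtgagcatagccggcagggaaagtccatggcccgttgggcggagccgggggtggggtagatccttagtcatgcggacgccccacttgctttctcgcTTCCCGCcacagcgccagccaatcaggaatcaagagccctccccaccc
Rrm2, chr12:24708004-24708253, plus strand: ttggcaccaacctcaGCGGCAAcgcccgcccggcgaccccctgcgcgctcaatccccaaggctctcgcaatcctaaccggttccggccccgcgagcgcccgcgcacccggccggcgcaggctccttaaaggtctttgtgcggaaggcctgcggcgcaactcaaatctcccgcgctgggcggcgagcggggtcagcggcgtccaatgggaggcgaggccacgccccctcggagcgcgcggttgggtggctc
Cdc45, chr16:18811973-18812222, minus strand: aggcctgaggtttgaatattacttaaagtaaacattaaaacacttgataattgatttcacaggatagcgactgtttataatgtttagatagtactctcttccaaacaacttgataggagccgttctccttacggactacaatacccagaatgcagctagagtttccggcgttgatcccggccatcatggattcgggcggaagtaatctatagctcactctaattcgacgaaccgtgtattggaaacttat
The Mcm6 stretch holds a merged word of 10 letters in 2 places, beginning 109 and 46 bases before the start. Mcm5 has words beginning 164 and 152 bases before the start, Uhrf1 (the first of its windows) has 1 beginning 48 bases before it and Rrm2 has 1 beginning 235 bases before it. Cdc45, which also rose, shows no E2F word in this stretch.

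Origin recognition came through with no gene past the test. The origin recognition complex marks the sites where replication may start, and Orc2 to Orc5 were present in both populations at between 8.49 and 17.8 RPKM in every library. Orc1, the subunit known to be made with the cell cycle, was the lowest, with 1.43, 0.802 and 1.34 RPKM in GFP-hi libraries and 0.764, 0.623 and 1.05 RPKM in GFP-lo libraries. Its groups overlapped (log2 fold change 0.27, 95% interval -0.05 to 0.58, BH-adjusted p = 0.33). Orc6 was the only subunit of the 6 whose groups did not overlap, with means of 5.71 ± 0.179 and 5.10 ± 0.401 RPKM (SD, n = 3 each, BH-adjusted p = 0.30). Summed over the complex, GFP-hi libraries had 58.1 ± 2.09 and GFP-lo libraries 55.9 ± 2.28 RPKM (SD, n = 3 each).

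Origin licensing showed higher transcripts of 3 helicase subunits. Of 8 licensing genes tested, Mcm5, Mcm6 and Mcm7 rose and 0 fell, with a median log2 fold change of 0.33. The 6 subunits of the MCM ring summed to 203, 178 and 202 RPKM in GFP-hi libraries and to 164, 147 and 151 RPKM in GFP-lo libraries. All GFP-hi sums thus lay above all GFP-lo sums, and the 6 ratios of the means ran from 1.15 to 1.49. These transcripts were abundant in both populations, so that a large store of MCM mRNA was also present in the dim cells.

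Mcm5, whose promoter is printed above, had 25.05, 20.5 and 23.0 RPKM in GFP-hi libraries and 15.8, 15.5 and 14.7 RPKM in GFP-lo libraries. The groups were well apart, and the log2 fold change was 0.54 (SE 0.076, BH-adjusted p = 0.009). Mcm6, the most abundant gene of the whole list, had 48.6, 42.8 and 48.6 RPKM against 35.9, 34.2 and 34.3 RPKM. Its log2 fold change was 0.41 (SE 0.064, BH-adjusted p = 0.013). Mcm7 had 25.2, 23.9 and 25.2 RPKM in GFP-hi libraries and 21.0, 18.4 and 19.6 RPKM in GFP-lo libraries, with a log2 fold change of 0.32 (SE 0.062, BH-adjusted p = 0.029). Without GFP-hi replicate 1 or 3 or GFP-lo replicate 2 or 3, neither Mcm6 (BH-adjusted p up to 0.067) nor Mcm7 (up to 0.11) passed. The gap between its groups was narrow, from 21.0 to 23.9 RPKM.

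The other 3 subunits had positive fold changes that did not pass. Mcm4 had 43.3, 39.1 and 45.3 RPKM in GFP-hi libraries and 39.8, 34.0 and 37.5 RPKM in GFP-lo libraries (log2 fold change 0.19, 95% interval 0.01 to 0.37, BH-adjusted p = 0.22). Mcm2 had 34.8, 29.7 and 34.5 RPKM against 30.4, 27.1 and 26.9 RPKM (0.22, 95% interval 0.04 to 0.41, BH-adjusted p = 0.17). In both genes GFP-hi replicate 2 lay below GFP-lo replicate 1, so the groups overlapped. Mcm3 had 26.0, 22.1 and 24.9 RPKM against 21.1, 17.9 and 17.5 RPKM, with groups that did not overlap (0.35, 95% interval 0.15 to 0.55, BH-adjusted p = 0.07).

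The loading factors did not move alike. Cdc6, the loader that is made anew when cells leave rest, had 0.796, 0.603 and 0.917 RPKM in GFP-hi libraries and 0.052, 0.033 and 0.083 RPKM in GFP-lo libraries. That is 20.5 to 27.0 reads per kilobase against 0.938 to 2.17, so the dim cells' level rests on very few reads and no ratio is given. Its mean was under 1 RPKM and it was not tested; without the filter its log2 fold change was 0.74 (SE 0.098, BH-adjusted p = 0.0091). Cdt1, the partner of Cdc6, had 13.5, 13.2 and 12.6 RPKM in GFP-hi libraries and 15.8, 13.7 and 12.9 RPKM in GFP-lo libraries. Those groups overlapped, with a negative fold change in all 19 alternative fits (-0.10, 95% interval -0.28 to 0.08, BH-adjusted p = 0.53). Geminin (Gmnn), the inhibitor of Cdt1, had means of 6.58 ± 0.172 and 5.0 ± 0.770 RPKM (SD, n = 3 each) and missed the threshold (BH-adjusted p = 0.094) although its groups did not overlap.

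**Figure D2:**
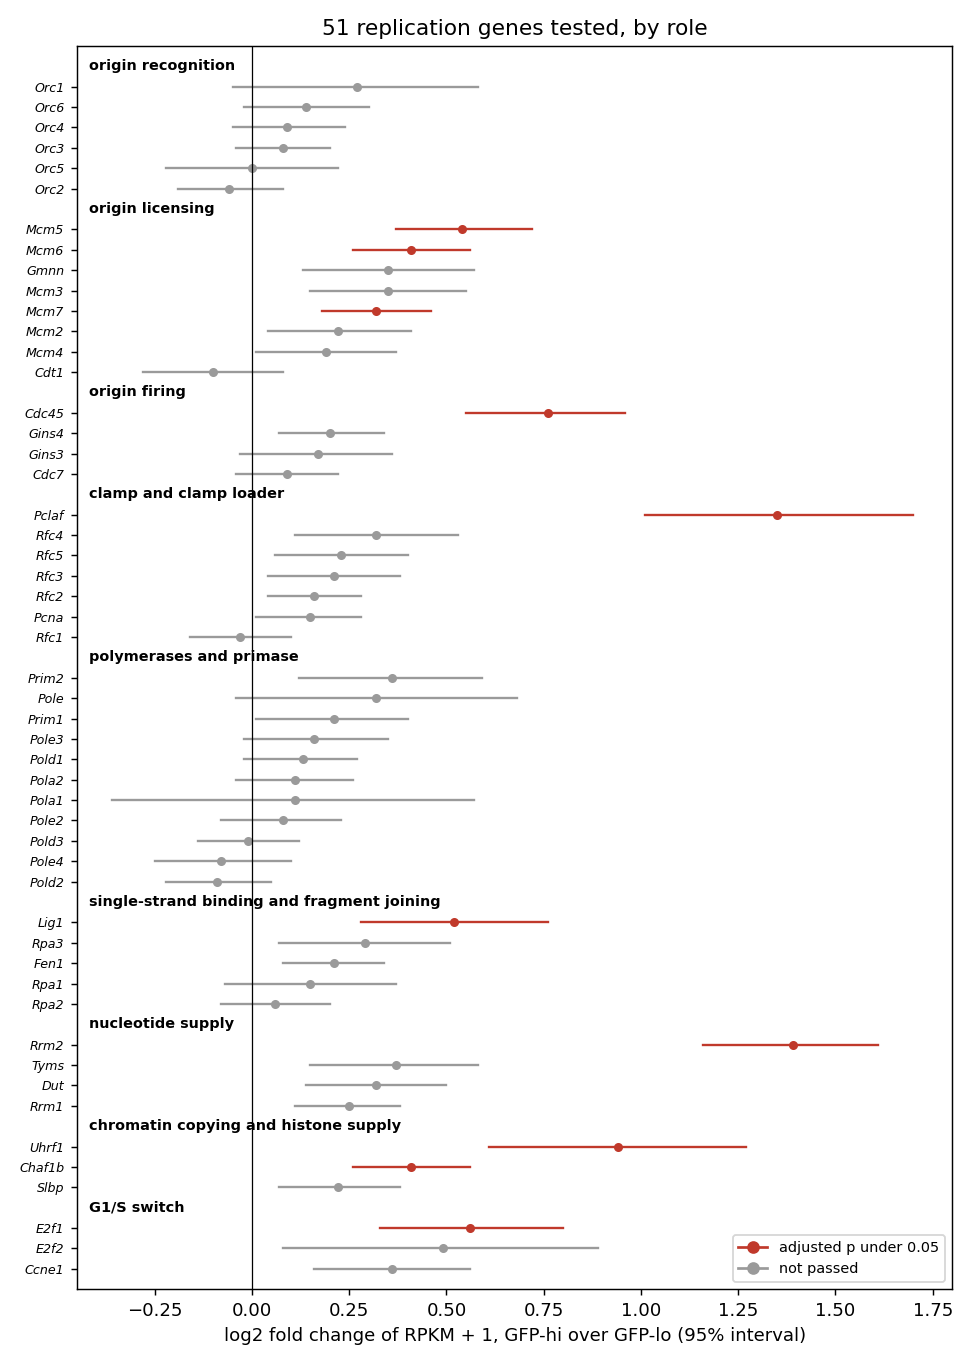
Log2 fold change of RPKM + 1 (GFP-hi over GFP-lo) of the 51 replication genes tested, grouped by role, with 95% intervals from limma; red marks an adjusted p under 0.05. All red intervals lie right of 0. Polymerase and origin recognition genes have medians of 0.11 and 0.087, against 0.018 over all genes tested. A positive fold change was found in 8 of 11 and in 5 of 6 of them.

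Origin firing was led by Cdc45, the helicase cofactor whose recruitment starts the fork. Cdc45 had 3.13, 2.53 and 3.31 RPKM in GFP-hi libraries and 1.40, 1.25 and 1.42 RPKM in GFP-lo libraries, a ratio of means of 2.20. All GFP-hi libraries were far above the GFP-lo range (log2 fold change 0.76, SE 0.09, BH-adjusted p = 0.0047). The other 3 firing genes tested, Gins3, Gins4 and Cdc7, had fold changes of 0.17, 0.20 and 0.09 and did not pass. Gins4 was by far the most abundant GINS subunit, with 33.5 ± 1.21 against 29.0 ± 1.60 RPKM (SD, n = 3 each), and its groups did not overlap. Cdc7, the kinase that triggers firing, differed little, with 7.49 ± 0.166 against 6.99 ± 0.285 RPKM (SD, n = 3 each, BH-adjusted p = 0.44).

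Gins2 and Mcm10 were too low to be tested. Mcm10, which helps to start the helicase, had 0.598, 0.411 and 0.660 RPKM in GFP-hi libraries and 0.091, 0.124 and 0.302 RPKM in GFP-lo libraries, and Gins2 had 0.806, 0.706 and 0.750 RPKM against 0.487, 0.323 and 0.318 RPKM. The groups did not overlap in either gene, and without the filter neither passed (BH-adjusted p = 0.099 and 0.081).

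**Figure D3:**
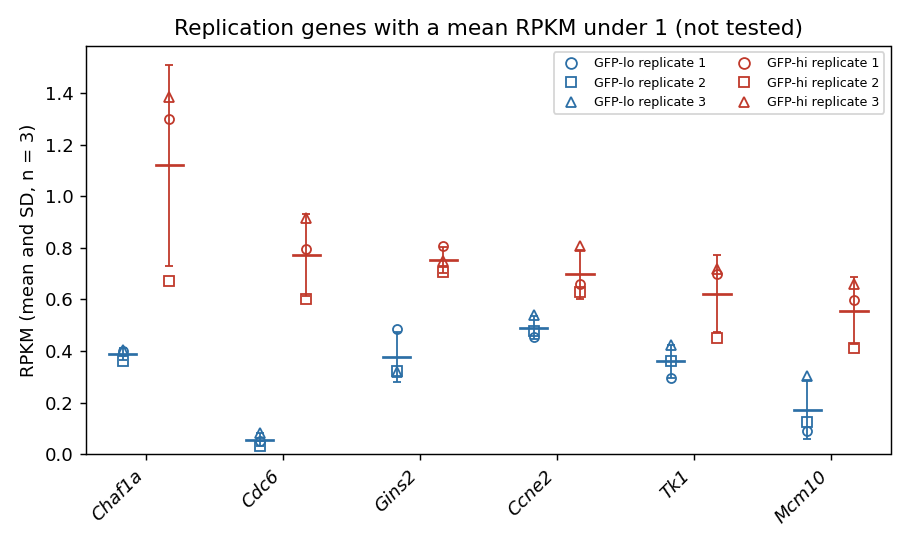
RPKM of the 6 replication genes with a mean under 1 over all libraries, which were not tested; each symbol is 1 library, and bars give the mean and SD of 3 libraries. GFP-hi libraries lie above GFP-lo libraries in all 6, and in Cdc6 the GFP-lo libraries lie at 0.033 to 0.083 RPKM.

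The clamp and its loader differed by small amounts, apart from a clamp partner. Pclaf, a small protein that binds Pcna at forks, had 2.03, 1.25 and 2.46 RPKM in GFP-hi libraries and 0.073, 0.159 and 0.136 RPKM in GFP-lo libraries. In reads this was 42.3 to 72.3 per kilobase against 2.62 to 4.52 per kilobase. The log2 fold change was 1.35 (SE 0.15, BH-adjusted p = 0.0037), and by this measure Pclaf ranked 9 among all 9351 genes tested. With a mean of 1.02 RPKM it passed the filter only through GFP-hi, so its call and rank favour a rise. The size depended on the pseudocount, with 1.92 at 0.5 and 3.14 at 0.1, as its GFP-lo level is near 0. Pcna itself, the clamp, was high in both populations, with 34.5, 37.1 and 34.3 RPKM against 32.4, 32.9 and 30.1 RPKM. Its groups did not overlap, yet the difference was small and did not pass (0.15, 95% interval 0.01 to 0.28, BH-adjusted p = 0.21). Pseudogenes of Pcna exist in the mouse genome, so part of its reads may be placed on the wrong copy.

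The clamp loader opens the clamp and closes it around DNA. Its 5 subunits Rfc1 to Rfc5 had fold changes from -0.028 to 0.32 and none passed. The groups did not overlap in Rfc2, Rfc3, Rfc4 and Rfc5, whereas Rfc1, the large subunit, had 13.5 ± 0.733 against 13.7 ± 0.112 RPKM (SD, n = 3 each, BH-adjusted p = 0.83). Rfc4 had the largest difference of the 5, with 7.5 ± 0.259 against 5.82 ± 0.835 RPKM (SD, n = 3 each, BH-adjusted p = 0.10).

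The polymerases and primase showed no gene past the test. Of 11 tested, 8 (72.7%) had a positive and 3 a negative fold change, against 55.5% positive among all genes tested, and the median was 0.11. In 3 (27.3%) every GFP-hi library lay above every GFP-lo library, against 17.1% of all genes tested. The summed level of the 11 was 121, 122 and 123 RPKM in GFP-hi libraries and 114, 116 and 122 RPKM in GFP-lo libraries, so the groups overlapped. Polymerase alpha with primase lays down the RNA-DNA primers. Its subunit Prim2 had the largest difference, with 4.83, 4.59 and 5.03 RPKM in GFP-hi libraries and 3.26, 3.11 and 4.34 RPKM in GFP-lo libraries (0.36, 95% interval 0.12 to 0.59, BH-adjusted p = 0.10).

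Polymerase delta makes most of the lagging strand. Its subunits Pold1 to Pold3 summed to 47.8 ± 1.49 RPKM in GFP-hi libraries and 47.6 ± 1.78 RPKM in GFP-lo (SD, n = 3 each). Of these, Pold2 had 21.2, 20.5 and 21.3 RPKM against 22.5, 21.0 and 23.6 RPKM, with overlapping groups (-0.09, 95% interval -0.22 to 0.05, BH-adjusted p = 0.47). Pold4, a subunit outside the list, had 13.0 ± 0.818 against 11.1 ± 1.03 RPKM (SD, n = 3 each), with groups that did not overlap (0.21, 95% interval 0.03 to 0.39, BH-adjusted p = 0.20). Polymerase epsilon, the main leading-strand enzyme, was uneven in level among its subunits. Its catalytic subunit Pole had 3.22, 1.81 and 3.29 RPKM in GFP-hi libraries and 1.91, 1.87 and 2.13 RPKM in GFP-lo libraries, and its small subunit Pole4 had 28.5, 32.9 and 29.0 RPKM against 29.4, 33.6 and 32.4 RPKM. Pole4 did not differ beyond its spread (-0.08, 95% interval -0.25 to 0.10, BH-adjusted p = 0.64). Pole did not pass either (0.32, 95% interval -0.04 to 0.68, BH-adjusted p = 0.31), and its groups overlapped through GFP-hi replicate 2 alone. Without that library, a fit picked after the values were seen, its log2 fold change was 0.52 (BH-adjusted p = 0.016). Of the 6 fits that left out 1 library, this was the only 1 in which Pole passed.

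Lig1, the ligase that joins lagging-strand fragments, was the only gene of its group of 5 to rise. It had 4.76, 3.84 and 5.41 RPKM in GFP-hi libraries and 3.11, 2.70 and 2.96 RPKM in GFP-lo libraries, and the log2 fold change was 0.52 (SE 0.11, BH-adjusted p = 0.035). The call was lost without any library but GFP-hi replicate 2 (BH-adjusted p up to 0.13). The nuclease Fen1, which trims the same fragments, had 7.58 ± 0.326 against 6.39 ± 0.0557 RPKM (SD, n = 3 each), with groups that did not overlap (BH-adjusted p = 0.08). The single-strand binding subunits Rpa1, Rpa2 and Rpa3 overlapped between the populations, and their log2 fold changes were 0.15, 0.06 and 0.29.

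Nucleotide supply held Rrm2, which had the largest difference among the 51 tested genes of the list on the log2(RPKM + 1) scale. With a pseudocount of 0.5 or 0.1 Pclaf was ahead of it, with 1.92 against 1.58 and 3.14 against 1.78. Ribonucleotide reductase makes deoxynucleotides, and its small subunit Rrm2 had 6.27, 5.16 and 6.54 RPKM in GFP-hi libraries and 1.61, 1.90 and 1.49 RPKM in GFP-lo libraries. The lowest GFP-hi library was thus well above the highest GFP-lo library, the ratio of the means was 3.59 and the log2 fold change was 1.39 (SE 0.097, BH-adjusted p = 0.00079). By log2 fold change it ranked 8 of the 9351 genes tested. The large subunit Rrm1 had 12.7, 11.6 and 13.0 RPKM against 10.4, 10.4 and 10.2 RPKM, groups that did not overlap but with a smaller difference (0.25, 95% interval 0.11 to 0.38, BH-adjusted p = 0.061). Rrm1 was the more abundant subunit in all 6 libraries.

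The other supply enzymes were higher in each GFP-hi library without passing. Dut, which removes dUTP, had 10.4, 12.1 and 10.6 RPKM in GFP-hi libraries and 8.004, 9.32 and 8.53 RPKM in GFP-lo libraries (0.32, 95% interval 0.14 to 0.50, BH-adjusted p = 0.064). Tyms, which makes thymidylate, had 1.57, 1.39 and 1.64 RPKM against 0.757, 1.03 and 1.13 RPKM (0.37, 95% interval 0.15 to 0.58, BH-adjusted p = 0.075), and a transcribed pseudogene of it exists. Tk1, the S-phase thymidine kinase, was not tested, with 0.700, 0.451 and 0.717 RPKM against 0.294, 0.362 and 0.424 RPKM.

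Among genes that copy chromatin, Uhrf1 and Chaf1b rose. Uhrf1, which brings the maintenance methyltransferase to new DNA, had 11.3, 7.49 and 11.5 RPKM in GFP-hi libraries and 5.03, 4.66 and 4.43 RPKM in GFP-lo libraries. GFP-hi replicate 2 was lower than its partners but still above all GFP-lo libraries (log2 fold change 0.94, SE 0.14, BH-adjusted p = 0.012). Chaf1b, a subunit of the histone chaperone CAF-1, had 5.09, 4.90 and 5.26 RPKM against 3.42, 3.46 and 3.87 RPKM (0.41, SE 0.066, BH-adjusted p = 0.015). Chaf1b missed the threshold without GFP-hi replicate 1 or 3 or GFP-lo replicate 2 (BH-adjusted p up to 0.072), and Uhrf1 without GFP-lo replicate 2 or 3 (up to 0.055). Its large partner Chaf1a was not tested, with 1.301, 0.673 and 1.39 RPKM against 0.401, 0.360 and 0.403 RPKM (BH-adjusted p = 0.066 without the filter). Slbp, which binds histone mRNA, had 18.7 ± 0.922 against 16.0 ± 1.14 RPKM (SD, n = 3 each, BH-adjusted p = 0.12).

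The G1/S switch genes were low to moderate in level. E2f1, an activating E2F factor, rose, with 2.73, 2.09 and 2.93 RPKM in GFP-hi libraries and 1.52, 1.32 and 1.39 RPKM in GFP-lo libraries (log2 fold change 0.56, SE 0.10, BH-adjusted p = 0.023). The call was lost without any library but GFP-hi replicate 2 (BH-adjusted p up to 0.092). E2f2, another activator, had 3.78, 2.32 and 3.48 RPKM against 2.37, 1.34 and 2.28 RPKM, and GFP-hi replicate 2 fell inside the GFP-lo range (0.49, 95% interval 0.08 to 0.89, BH-adjusted p = 0.18). Cyclin E1 (Ccne1), which drives entry into S phase with Cdk2, had 9.95 ± 0.872 against 7.52 ± 0.732 RPKM (SD, n = 3 each, BH-adjusted p = 0.06). Cyclin E2 (Ccne2) was not tested, with 0.698 ± 0.0957 against 0.491 ± 0.0442 RPKM (SD, n = 3 each).

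**Figure D4:**
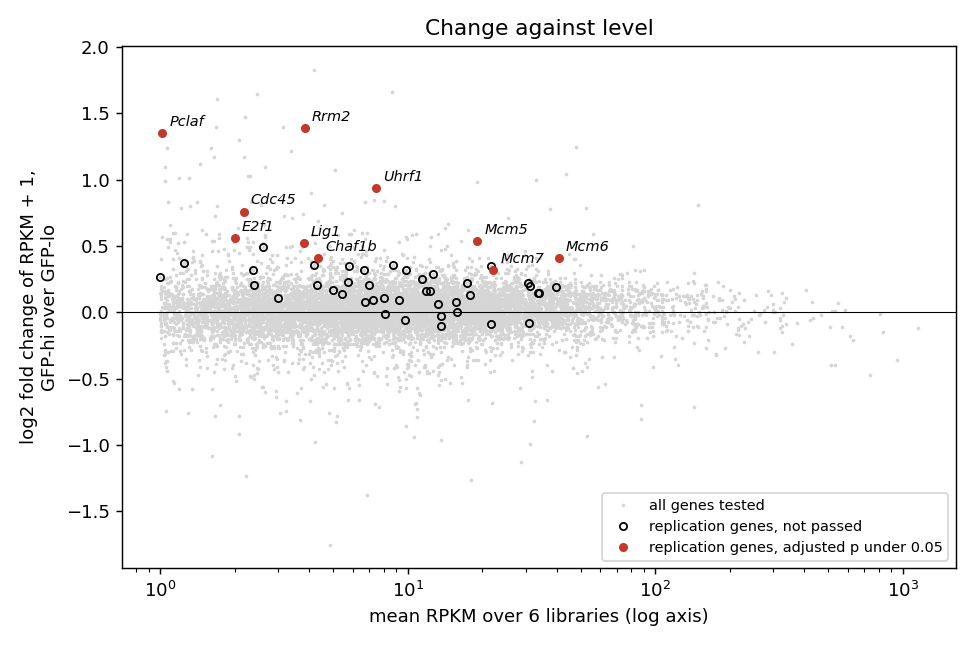
Log2 fold change of RPKM + 1 against mean RPKM (log axis) for the 9351 genes tested (grey), with the 41 replication genes that did not pass (open circles) and the 10 that rose (red). The changes over 0.7 belong to genes with a mean under 8 RPKM (Rrm2, Pclaf, Uhrf1 and Cdc45), and of the 6 abundant MCM genes 3 rose, by 0.32 to 0.54.

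Further genes of the same pathway, 99 in 5 lists, were set beside them. Of 78 tested, 10 rose and 1 fell, and the median log2 fold change was 0.12. Among nucleotide enzymes 3 of 25 rose, among them Dctpp1, which clears unwanted nucleotides (0.59, BH-adjusted p = 0.0036), and Shmt1 (0.34, adjusted p = 0.037). Among chromatin genes 4 of 16 rose, which were Cdca7 (0.85, BH-adjusted p = 0.011), the histone chaperone Asf1b (0.44, adjusted p = 0.013), Mms22l (0.34, adjusted p = 0.040) and Rbbp7 (0.25, adjusted p = 0.032). Of 21 further fork and checkpoint genes, Top2a (1.3, BH-adjusted p = 0.0019) and the fork protector Timeless (0.35, adjusted p = 0.031) rose. Donson, which helps to assemble the helicase, fell, with 8.45, 8.81 and 8.83 RPKM in GFP-hi libraries and 10.9, 12.0 and 11.4 RPKM in GFP-lo libraries (-0.36, SE 0.058, BH-adjusted p = 0.015). Of 11 genes of G1/S control, Cdk2 rose (0.40, BH-adjusted p = 0.015). Of a list of 18 mitosis genes, Top2a among them, every GFP-hi library lay above every GFP-lo library in 16. Of the 9 tested 8 rose, but most of these, Top2a included, had a GFP-lo mean under 1 RPKM and reached the filter only through GFP-hi, so that this count favours a rise.

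Libraries also differed in genes that cell handling can induce, although the labels name no difference in handling. The heat-shock gene Hspa1a had 1100 RPKM in GFP-hi replicate 2 and 1234 RPKM in GFP-lo replicate 2, against at most 235.2 in the other 4 libraries. Summed over 15 dissociation and heat-shock genes, GFP-hi libraries ranged from 2770 to 6690 and GFP-lo libraries from 3720 to 7580 RPKM, and 12 of 15 had a negative fold change. Among the 4 libraries with less of it, 2 per population, 8 of the 10 genes stayed higher, all but Chaf1b (0.41, BH-adjusted p = 0.094) and Mcm7 (0.30, adjusted p = 0.099). The remaining 2 libraries hold 1 sample per population and give no test. With the level of the 15 genes as a covariate, 17 of 51 rose, including all 10. The 15 include Nr4a1, whose sequences drive the reporter, and Egr1, Fos and Jun. The covariate may thus also remove some of the signal on which the cells were sorted, which was not tested. The Nr4a1 transcript did not differ beyond its spread. Its means were 61.5 ± 27.3 against 60.6 ± 25.6 RPKM (SD, n = 3 each), GFP-hi first. The log2 fold change was 0.02 (95% interval -0.85 to 0.89, BH-adjusted p = 0.98). Those of Egr1, Fos and Jun were -0.31, -0.18 and -0.40, and none passed. Without GFP-lo replicate 2 only 4 rose, without GFP-hi replicate 1 or 3 5 did, and without GFP-lo replicate 3 6 did. Rrm2, Pclaf, Cdc45 and Mcm5 rose in each of the 6 fits that left out 1 library, whereas the other 6 of the 10 lost the call in some or most. Uhrf1 kept it in 4 of the 6 fits, Chaf1b in 3, Mcm6 and Mcm7 in 2, and E2f1 and Lig1 in 1, which was the fit without GFP-hi replicate 2. All 6 fits kept the genes filtered over all 6 libraries. Pclaf, with a mean of 1.02 RPKM, passed that filter only through GFP-hi, so its calls in these fits favour a rise.

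**Figure D5:**
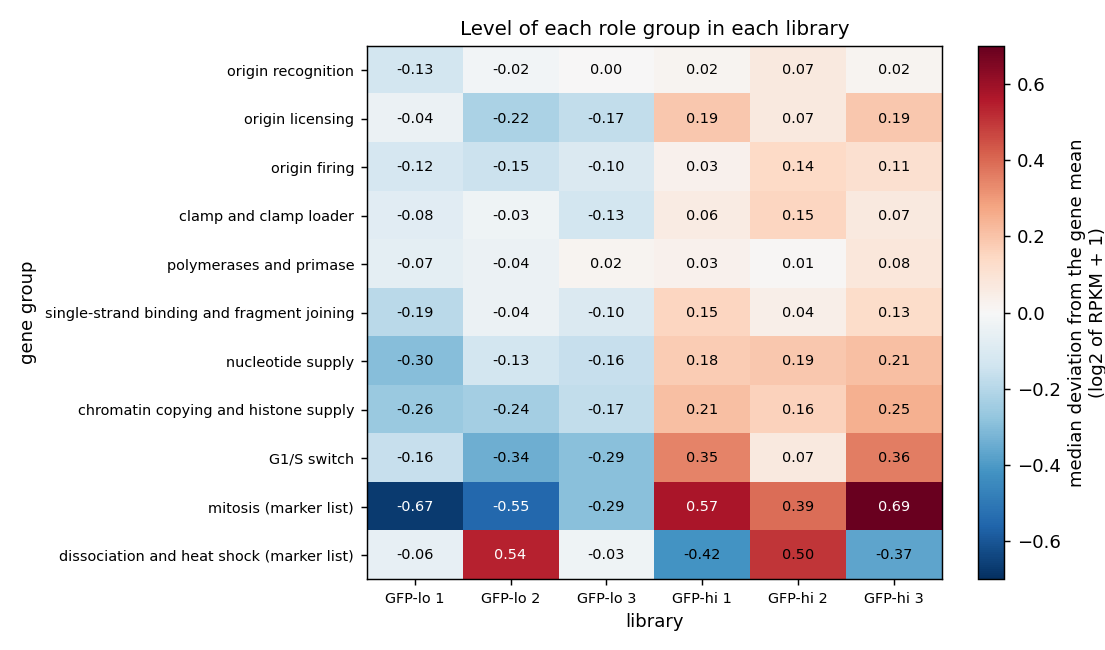
Median deviation from the gene mean (log2 of RPKM + 1) of the tested genes of each role in each library, with the mitosis and the dissociation and heat-shock lists below. Nucleotide supply is at 0.18 to 0.21 in GFP-hi and at -0.30 to -0.13 in GFP-lo libraries, and the heat-shock list is highest in replicate 2 of both populations.

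Markers of other cells the gate could hold were mixed. The CD8 genes Cd8a and Cd8b1 were at 90.9 to 107 and at 785 to 839 RPKM in all libraries. Of the immature thymocyte list, cells that divide in the thymus, 6 of 8 genes had values, and the sums ranged from 845 to 893 RPKM in GFP-hi libraries and 843 to 895 RPKM in GFP-lo, most of it Cd8b1. The defining genes Rag1 and Dntt were at 0.031 to 0.673 and 1.07 to 1.48 RPKM in GFP-hi libraries and at 0.021 to 0.572 and 1.75 to 2.34 RPKM in GFP-lo libraries. The B cell list (3 of 7 with values, led by Cd79b) summed to 12.6 to 14.2 against 11 to 11.4 RPKM, the myeloid list (3 of 8, led by Cst3) to 20.5 to 25.8 against 20.6 to 22.5 RPKM. The erythroid list (3 of 8, led by Tfrc) summed to 12.8 to 15.1 against 9.49 to 12.1 RPKM, and Car2 rose. The plasma cell list (2 of 5, led by Xbp1) summed to 12.6 to 14.3 against 10.6 to 12.7 RPKM, most of it Xbp1. Its other gene Jchain, made by plasma cells for their antibodies, was not tested, with 1.45, 0.822 and 1.42 RPKM in GFP-hi libraries against 0.145, 0.405 and 0.450 RPKM, groups that did not overlap. The NK cell list (1 of 5, Eomes) summed to 5.49 to 8.14 against 5.86 to 7.68 RPKM. The CD4 T cell list (2 of 5) summed to 15.6 to 23.7 against 36.9 to 48.5 RPKM, and its leading gene Cd40lg fell. The B cell and erythroid sums and Jchain were higher, and the CD4 sum lower, in every GFP-hi library than in every GFP-lo library. Of the thymocyte list, Dntt (-0.39, BH-adjusted p = 0.083) and Themis (-0.04, BH-adjusted p = 0.67) were also lower in every GFP-hi library without passing. The other thymocyte genes with values overlapped. Gene by gene, only Cd79b of the B cell list and Car2 of the erythroid list had groups that did not overlap. Ms4a1 had means of 0.362 and 0.355 RPKM, Cd22 0.188 and 0.114, Hba-a1 0.701 and 0.787 and Tfrc 9.11 and 7.72, GFP-hi first. The part of these cells in the replication genes was not tested.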

How the data were processed

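RPKM values of 6 libraries were deposited by the authors in 1 table. Per the submitters' processing notes the tools included STAR and the build was mm10; the read counter, the annotation and the rule for listing genes are not given in the sources used here. Per the labels' protocols, SMART-seq v4 gave the cDNA and Nextera XT the libraries. Columns were matched to samples by title, and replicate numbers follow record order, so libraries were not paired. Values were tested as log2(RPKM + 1) with limma 3.58.1 (R 4.3.3; lmFit, eBayes with trend, two-sided) in the 9351 genes whose mean reached an RPKM of 1. Depth was recovered from RPKM steps in 720 single-transcript GENCODE M21 genes. Of 70 to 109 low values per library, 88.5% to 93.6% lay within 0.1 of a whole read. A depth fixed in advance would give 20% by chance, but the depth was chosen to fit these values. The score of that fit was 10.3 to 13.1, and 2.7 to 3.55 with gene lengths exchanged. Recovered reads include PCR copies. In simulated data over 9351 genes with 200 changed by 1, 97% were recovered and 4.39% of calls were false. Of the list only Rrm2 and Pclaf changed by more than 1 on this scale. Recovery of smaller changes was not simulated, so the 97% does not apply to them. The gene list, its roles, the pathway and marker lists and the tests were chosen with earlier results of these data known. All 6 values were to be given for each gene of the list past the threshold, and for the 2 most abundant and the most changed gene that did not pass in licensing, nucleotide supply and polymerases; other genes with all 6 values were picked after their values were seen. Of the further pathway genes, up to 4 past the threshold per list were to be named, and 1 of these is not reported here. Figures were drawn with matplotlib 3.10.9.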

Additional observations from a re-analysis of the deposited data

How the results depend on the processing

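Over 19 alternative fits, 0 genes of the list fell, the 10 that rose kept a positive fold change wherever they were fitted, and 43 to 46 of the 51 had a positive fold change in fits that kept the filter. The number that rose was 4 with a mean RPKM of at least 5, where 37 genes of the list were tested, and 29 with array quality weights. It was 17 with the dissociation and heat-shock level as a covariate, and 4 to 13 when 1 library was left out. All genes called numbered 369, against 202 with a mean of at least 5, 1282 with array weights, 101 in the 4 libraries with lower heat-shock genes, 833 with that covariate and 133 to 315 without 1 library. The list's median of 0.21 became 0.16 with a mean of at least 5, 0.18 with the trend with transcript length removed, and 0.20 to 0.25 without 1 library. With trimmed mean of M values scaling, Lig1 missed the threshold (limma adjusted p = 0.051), and of all genes called 201 were higher and 186 lower, against 230 and 139, and the median of all genes tested moved from 0.018 to -0.0065; with the length trend removed 256 were higher and 241 lower. Both heat-shock fits and the length fit were added with the data in view. No paired analysis was run, because the labels give no replicate numbers and do not say which libraries belong together. Where no cause is named, the cause was not tested. Genes under 1 RPKM rest on at most 35.94 reads per kilobase, which limits Cdc6 and Pclaf in GFP-lo cells most.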

Other observations

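Genes of homologous repair, which mends broken forks, were mostly too low to be tested. Of 12, 5 were tested and none passed in limma (0 at an unadjusted p under 0.05), with a median log2 fold change of 0.11.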
